A study of Mus musculus with 26 samples.

Results

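The DNA replication and S-phase genes described here are 49 genes that copy the genome, chosen by name from their functions in replication licensing, at the replication fork and in nucleotide supply, among 55341 genes counted in each library. All 49 were found through their Ensembl identifiers, and all 49 passed the filter on low counts in both experiments. They fall into 8 roles: licensing (11 genes), helicase activation (6), clamp, clamp loader and single-strand binding (9), polymerases and primase (8), flap and nick joining (2), nucleotide supply (5), cyclin E and E2F (4), and copying of chromatin (4).

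C2C12 cells are mouse myoblasts in culture, which stop dividing and fuse into multinucleated myotubes once serum is lowered. The study asked how SMYD3, a lysine methyltransferase, bears on this process, and sequenced polyadenylated RNA from 26 cultures. In the siRNA experiment, proliferating C2C12 cells were transfected with siCtrl, siSMYD3#1 or siSMYD3#2 and again when differentiation was induced, and were harvested undifferentiated (0 h) or after 24 h in low-serum medium, with 3 biological replicates for each of the 6 groups (18 libraries). In the overexpression experiment, C2C12 cells infected with the empty pREV vector were compared at the same times with SMYD3 CL5, 1 clone infected with pREV carrying HA-FLAG-tagged SMYD3, with 2 replicates for each of the 4 groups (8 libraries). In each siRNA group 1 library came from TRIzol RNA and 2 from NucleoSpin RNA, and every overexpression library came from TRIzol RNA. The study's list of libraries gives the TRIzol siRNA cultures another passage label than the NucleoSpin ones, so extraction and passage cannot be told apart. Values are listed below in the order TRIzol, NucleoSpin 1, NucleoSpin 2, or replicate 1, replicate 2.

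Replication begins with licensing, in which ORC, CDC6 and CDT1 load the ring-shaped MCM helicase onto DNA. CDC45 and the GINS complex then turn the loaded ring into a moving helicase at entry into S phase, and polymerases, the PCNA clamp and a supply of deoxynucleotides complete the work. Many of these genes are transcribed under E2F factors, which pocket proteins such as RB hold in check when cells stop dividing, as myoblasts do before they fuse.

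Because the members moved together in the data below, their promoters are shown first. RefSeq windows (build GRCm38.p6, 250 bases before to 50 bases after the annotated start) were matched by symbol for 40 of the 49 genes. These genes have 49 windows in all, since 7 of them have alternative starts, and a gene counts as holding a motif when any of its windows does. The letters TTTCCCGC, TTTGGCGC, TTTCGCGC and TTTGCCGC, common forms of the E2F motif, were searched on either strand, and matches may overlap. They occurred in 16 of 40 genes (40.0%), against 4.59% of 10519 genes with a window that were tested in the siRNA experiment and 2.6% of all 27025 genes with a window. The members were not alone in this. The letters also occurred in 25.6% of 43 other replication genes and 46.7% of 15 E2F and pocket protein genes with a window, from the lists described below. Of the other letters searched on either strand, CCAAT occurred in 62.5% of the members with a window and in 42.9% of such tested genes, GGGCGG in 80.0% and 67.2%, and TTTGAA in 17.5% and 14.4%. The 5 members with a match that changed most in siCtrl cells are printed 5′ to 3′ on the gene's strand with the matched letters in capitals. They are Cdc6 (chr11:98907901-98908200, plus strand), Orc1 (chr4:108579204-108579503, plus), Mcm5 (chr8:75109259-75109558, plus), Mcm3 (chr1:20820263-20820562, minus) and Uhrf1 (chr17:56304063-56304362, plus).
Cdc6: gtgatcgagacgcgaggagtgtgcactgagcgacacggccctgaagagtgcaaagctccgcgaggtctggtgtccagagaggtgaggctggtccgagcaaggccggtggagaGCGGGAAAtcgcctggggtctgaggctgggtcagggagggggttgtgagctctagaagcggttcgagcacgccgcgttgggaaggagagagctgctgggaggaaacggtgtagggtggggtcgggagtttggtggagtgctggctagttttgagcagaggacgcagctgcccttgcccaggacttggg
Orc1: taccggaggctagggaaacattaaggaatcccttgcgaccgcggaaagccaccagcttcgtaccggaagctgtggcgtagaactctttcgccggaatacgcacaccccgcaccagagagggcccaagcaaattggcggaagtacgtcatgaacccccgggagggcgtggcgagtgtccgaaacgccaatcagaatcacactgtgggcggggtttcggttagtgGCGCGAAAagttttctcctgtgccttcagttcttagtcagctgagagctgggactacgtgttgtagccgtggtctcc
Mcm5: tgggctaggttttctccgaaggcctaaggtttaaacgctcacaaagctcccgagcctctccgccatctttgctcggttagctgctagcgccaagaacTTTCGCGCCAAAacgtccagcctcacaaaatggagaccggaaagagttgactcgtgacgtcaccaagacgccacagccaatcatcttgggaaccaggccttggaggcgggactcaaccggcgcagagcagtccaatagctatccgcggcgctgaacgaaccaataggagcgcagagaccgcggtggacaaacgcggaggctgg
Mcm3: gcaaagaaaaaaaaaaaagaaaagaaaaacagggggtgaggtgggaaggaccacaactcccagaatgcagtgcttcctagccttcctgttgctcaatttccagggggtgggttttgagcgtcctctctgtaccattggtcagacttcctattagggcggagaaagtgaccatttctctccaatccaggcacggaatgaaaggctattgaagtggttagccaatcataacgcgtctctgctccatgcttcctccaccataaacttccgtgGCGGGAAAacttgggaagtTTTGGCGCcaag
Uhrf1: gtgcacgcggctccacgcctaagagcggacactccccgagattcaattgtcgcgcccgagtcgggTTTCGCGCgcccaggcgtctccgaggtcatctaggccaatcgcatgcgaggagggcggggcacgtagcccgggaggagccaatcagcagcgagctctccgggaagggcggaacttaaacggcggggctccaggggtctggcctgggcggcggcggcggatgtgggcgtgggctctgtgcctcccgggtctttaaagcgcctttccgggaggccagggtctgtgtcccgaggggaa
In Mcm5 the capitals hold a match on each strand that overlap in the middle, and in Mcm3 the 2 matches lie past the start, from bases 20 and 39. The Orc1 match begins 27 bases before the start. Uhrf1 has another window (chr17:56303087-56303386), which holds no match. The last bases of each printed window were looked up in the gene's transcripts to check the strand. Those of Mcm5 were found in neither direction, so its orientation was not checked in this way. A match is a string of letters and not a measured binding site. The median log2 change from 0 h to 24 h in siCtrl cells was -1.20 for the 16 genes with a match and -1.16 for the 24 genes without.

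Total counts ran from 14315193 to 60398170 in the siRNA libraries and from 21124675 to 67853386 in the overexpression libraries. Levels are CPM, a gene's count divided by the library size (scaled by the trimmed mean of M-values, TMM) and brought to a common total, and changes are log2 fold changes from edgeR's quasi-likelihood test with a standard error (SE). A gene was called when its Benjamini-Hochberg adjusted p over all genes tested was under 0.01. Smyd3, the target, stood at 21.7, 20.5 and 19.5 CPM in siCtrl at 0 h, at 19.0, 19.3 and 16.9 CPM in libraries labelled siSMYD3#1 and at 6.37, 7.56 and 8.93 CPM in siSMYD3#2. The paper presents both siRNAs as knockdowns of SMYD3, with qPCR and blots of its own. By edgeR Smyd3 fell in siSMYD3#2 at both times (log2 -1.41, adjusted p = 0.000107, and -1.51, adjusted p = 5.06e-05). In libraries labelled siSMYD3#1 the differences were -0.16 (adjusted p = 0.785) and -0.24 (adjusted p = 0.414), so lower Smyd3 RNA was not shown there. Why these counts differ from the paper's account was not tested. Smyd3 was not called higher in SMYD3 CL5 either (0.29 at 0 h, adjusted p = 0.593, and 0.36 at 24 h, adjusted p = 0.671). The species of the introduced SMYD3 cDNA is not given in the sources used here, and a cDNA of another species would not be counted in full at mouse Smyd3, so these values do not measure the clone's total SMYD3. The myoblast markers Myod1, Myf5, Des, Cdh15, Chrna1 and Itga7 were present in all 26 libraries, and of the markers of other cell types Epcam was at 0 throughout while Ptprc, Pecam1, Cdh5, Adipoq, Plin1 and Bglap never exceeded 18 counts. Cd68, Krt8 and Sp7 peaked at 6.57, 7.05 and 1.66 CPM.

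In siCtrl cells the replication genes fell together over the first 24 h of differentiation. Of the 49 members, 47 were called lower and 0 higher by edgeR, against 14.8% of all genes tested that were called lower. All 49 had an unadjusted p under 0.05, as did 7755 of the 15820 genes tested. DESeq2 also called no member higher at an adjusted p under 0.01 apart from E2f2. In 46 of 49 every 24 h library lay below every 0 h library, against 18.3% of all genes. The median log2 change of the members was -1.18 (range -2.14 to 0.75), and the median of all genes tested was 0.03. In bulk RNA, fewer cells in S phase and less of each transcript per cell cannot be told apart. The paper scored cells for incorporation of EdU, a label of DNA synthesis, in growth medium and in low-serum medium. It reports comparable shares of labelled cells with SMYD3 silenced or overexpressed and in the controls. How the RNA differences between groups described below relate to those shares was not tested. The summed level of the 49 genes was 5706, 6107 and 6419 CPM at 0 h and 2494, 2575 and 2766 CPM at 24 h. Within the TRIzol libraries the median difference in log2(CPM + 0.5) was -1.13, and within the NucleoSpin libraries it was -1.23. Early differentiation markers (Myog, Mymk, Myh3, Ckm, Tnnt1 and Mef2c) summed to 8.87 to 14.7 CPM at 0 h and 373 to 878 CPM at 24 h in the same libraries, and their part in the fall was not tested.

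**Figure D1:**
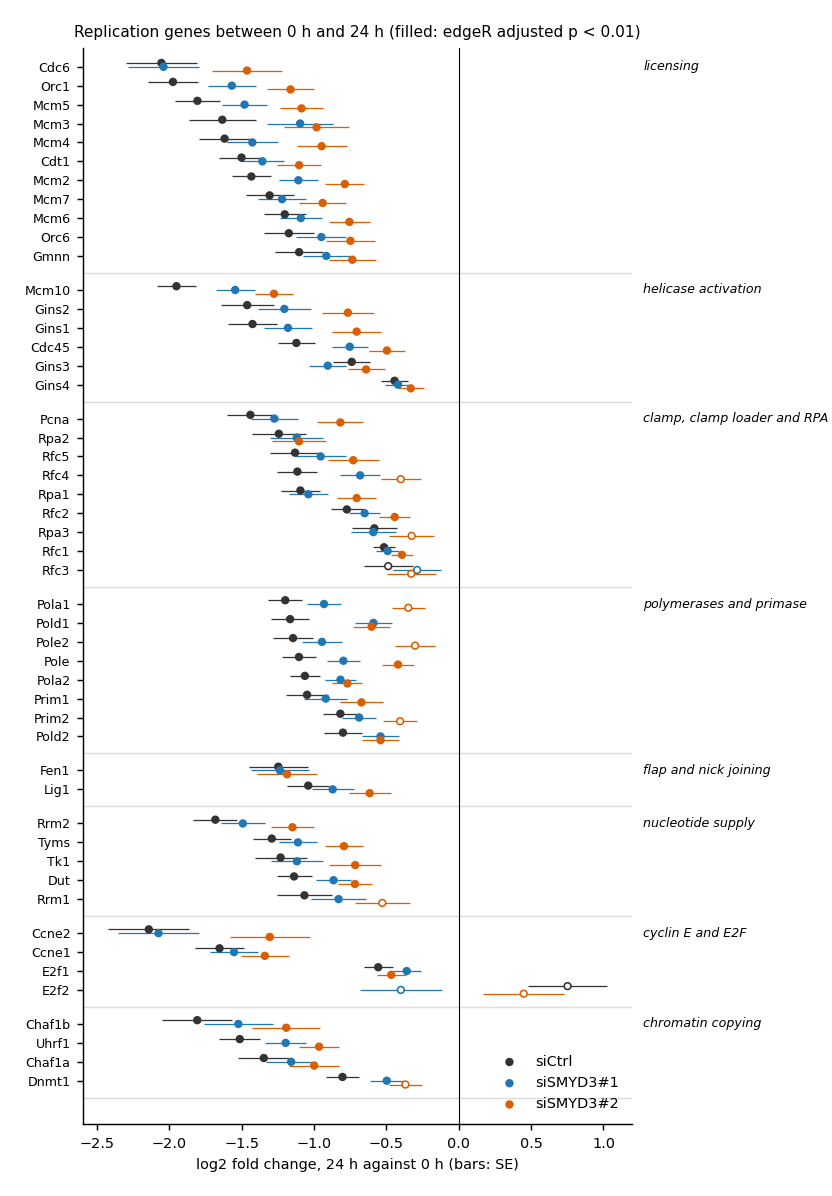
Log2 fold change from 0 h to 24 h (x axis) of each of the 49 members (y axis, grouped by role) in siCtrl, siSMYD3#1 and siSMYD3#2 cells, with bars of 1 SE and filled points where edgeR's adjusted p was under 0.01. Nearly all points lie left of 0, with medians over both extraction methods of -1.18, -0.95 and -0.73. E2f2 is the exception in siCtrl and siSMYD3#2 cells.

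All 11 licensing genes were called lower in siCtrl cells, with a median log2 change of -1.50 (range -2.06 to -1.10), the lowest median of the 8 roles. Cdc6, the ATPase that recruits the helicase to origins, stood at 70.1, 48.3 and 51.6 CPM at 0 h and at 13.97, 12.1 and 14.5 CPM at 24 h. All 24 h values were thus well under the lowest 0 h value, a log2 change of -2.06 (SE 0.25, edgeR adjusted p = 9.15e-06). Orc1, the largest subunit of the origin recognition complex, went from 19.5, 19.6 and 18.1 CPM to 5.52, 4.47 and 4.64 CPM, a log2 change of -1.98 (SE 0.17, adjusted p = 8.98e-08). The helicase subunits Mcm2 to Mcm7 fell by unequal amounts, from -1.81 for Mcm5 to -1.20 for Mcm6. Cdt1, the loading partner of CDC6, changed by -1.50, and Gmnn, which encodes the CDT1 inhibitor geminin, by -1.10, the smallest change of this role.

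Among the genes that activate the helicase, all 6 were called lower, with a median of -1.28. Mcm10, which is needed for the loaded helicase to start unwinding, went from 61.3, 50.8 and 47.2 CPM to 15.7, 12.7 and 12.7 CPM (log2 -1.95, SE 0.14, edgeR adjusted p = 7.24e-09). The 4 GINS genes encode subunits of a common complex, and their log2 changes were -1.46 in Gins2, -1.43 in Gins1, -0.74 in Gins3 and -0.44 in Gins4. Cdc45, their partner in the helicase, changed by -1.12.

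At the fork, 8 of 9 genes for the clamp, its loader and the single-strand binding protein RPA were called lower (median -1.10), as were all 8 polymerase and primase genes (median -1.08, range -1.20 to -0.80). Pcna, the sliding clamp, went from 295, 284 and 337 CPM to 111, 100.3 and 127 CPM (log2 -1.44, SE 0.16, edgeR adjusted p = 2.41e-06). Pola1, the catalytic subunit of the polymerase that starts each new strand, went from 79.3, 100.9 and 92.6 CPM to 29.9, 45.1 and 45.6 CPM (log2 -1.20, SE 0.12, adjusted p = 3.05e-07). Rfc3, a clamp loader subunit, was the member of this group not called (log2 -0.49, SE 0.17, adjusted p = 0.0274). Its TRIzol libraries did not fall, with 48.2 CPM at 0 h and 49.5 CPM at 24 h, while its NucleoSpin libraries went from 52.7 and 55.3 CPM to 31.3 and 32.1 CPM. Without the siCtrl 24 h TRIzol library Rfc3 was called (-0.72, adjusted p = 0.00474).

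Fen1, which trims the flaps of lagging-strand fragments, and Lig1, which seals them, were both called lower. Fen1 went from 11.5, 8.89 and 8.54 CPM to 4.82, 3.64 and 3.59 CPM (log2 -1.25, SE 0.20, edgeR adjusted p = 7.55e-05). Of its exon bases 84.2% are shared with other annotated genes, the highest share among the 16 members with any shared exon bases, and the strand setting of the counting is not given in the sources used here, so its level is uncertain. Gins2 (67.3%) and Chaf1a (52.5%) stood next in that order.

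All 5 nucleotide supply genes were called lower (median -1.23). Rrm2, the regulated subunit of ribonucleotide reductase, went from 378, 533 and 552 CPM to 121, 156 and 179 CPM (log2 -1.68, SE 0.15, edgeR adjusted p = 2.3e-07). It was the most abundant member per length of exon in siCtrl cells at 0 h, at 176 CPM per kilobase, followed by Pcna at 127, whereas Orc1 and Fen1 stood lowest at 5.48 and 3.97 CPM per kilobase. Pcna and Tyms have annotated pseudogenes named after them, with which they could share reads.

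The regulators of S-phase entry did not move as 1 group. Ccne2, a cyclin E that drives CDK2, had the largest change of all members, from 48.3, 109 and 70.0 CPM to 12.5, 17.2 and 20.96 CPM (log2 -2.14, SE 0.28, edgeR adjusted p = 3.26e-05). Ccne1 changed by -1.65 and the transcription factor E2f1 by -0.56, both called. E2f2, a second activating E2F, stood at 24.8, 58.5 and 58.2 CPM at 0 h and at 43.6, 93.6 and 100.4 CPM at 24 h. The groups overlapped because the TRIzol values lay below the NucleoSpin values at both times, and each library was above its 0 h counterpart of the same extraction. The fitted change was 0.75 (SE 0.28, adjusted p = 0.0407), not called, and with NucleoSpin libraries alone it was 0.72 (adjusted p = 0.000499), called higher. In DESeq2, too, it was called higher (0.77, adjusted p = 0.0087).

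The 4 genes that copy chromatin onto new DNA were all called lower (median -1.43). Chaf1b, a subunit of the CAF-1 histone chaperone, went from 45.6, 61.3 and 58.5 CPM to 17.0, 14.5 and 15.4 CPM (log2 -1.81, SE 0.24, edgeR adjusted p = 2.99e-05). Uhrf1, which reads hemimethylated DNA, changed by -1.51 and Dnmt1, the maintenance methyltransferase, by -0.80, the smallest change of the role.

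**Figure D2:**
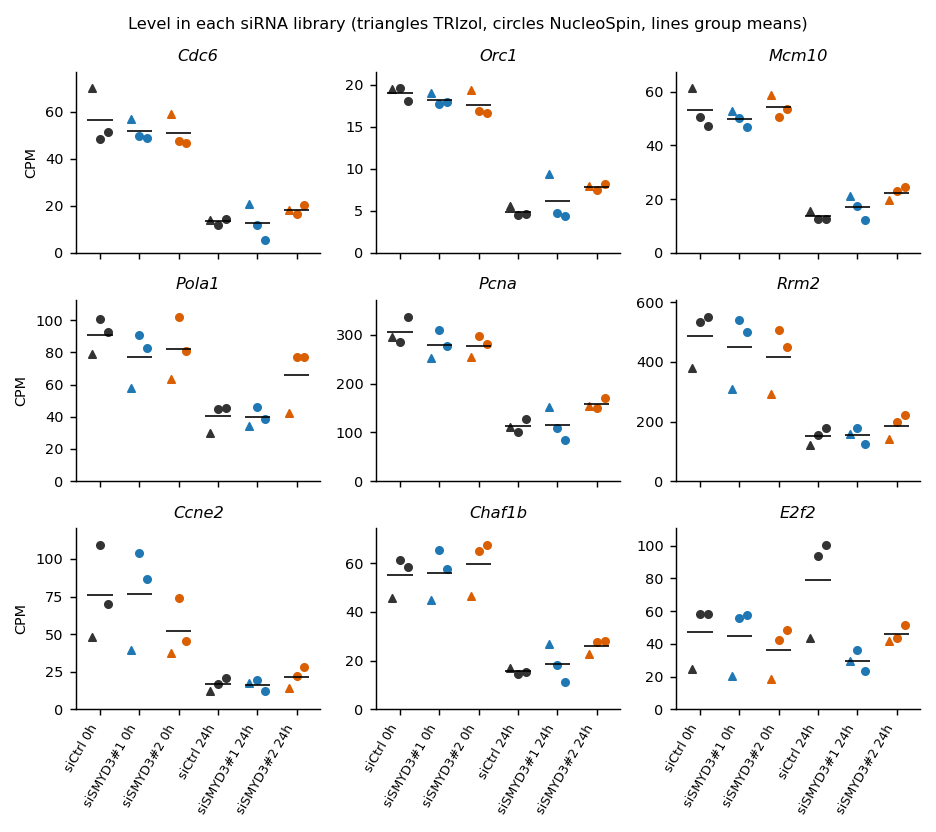
CPM (y axis, from 0) of Cdc6, Orc1, Mcm10, Pola1, Pcna, Rrm2, Ccne2, Chaf1b and E2f2 in each siRNA library, by group (x axis) and RNA extraction (marker). In 8 of the 9 genes the siCtrl 24 h libraries lie below all siCtrl 0 h libraries, and in E2f2 they lie above those of the same extraction.

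A further 51 replication genes outside the list were examined for context. Of these 44 were called lower and 0 higher in siCtrl cells (median -0.97). The largest changes were in Ung, the uracil glycosylase, which changed by -2.24, Exo1, an exonuclease of mismatch repair (-1.94), and Cdca7, a chromatin factor (-1.71). The 7 not called were Orc3, Mcm9, Pold4, Rnaseh2c, Chtf8, Tk2 and Rrm2b. Among 21 genes of the E2F, pocket protein and S-phase kinase groups, 11 were called lower and 6 higher. Those called higher were the CDK inhibitors Cdkn1c, Cdkn1a and Cdkn1b, the pocket protein genes Rb1 and Rbl2, and Tfdp2, a DP partner of E2Fs. Cdkn1a, which encodes p21, went from 322, 216 and 234 CPM to 596, 622 and 669 CPM (log2 1.32, edgeR adjusted p = 1.22e-06). Rb1 went from 31.6, 39.9 and 34.1 CPM to 55.9, 64.1 and 75.6 CPM (log2 0.89). Cdkn1c changed by 2.95 on the log2 scale but stayed at or under 2.48 CPM. E2f7, a repressive E2F, changed by -1.18.

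In libraries labelled siSMYD3#1, 47 of 49 members were called lower between 0 h and 24 h, against 12.7% of all genes, with a median of -0.95. In siSMYD3#2 cells 40 were called lower, against 9.88% of all genes, with a median of -0.73. Within the NucleoSpin libraries the median differences in log2(CPM + 0.5) were -1.23 in siCtrl, -1.29 in siSMYD3#1 and -0.725 in siSMYD3#2. Within TRIzol, with 1 library for each group, they were -1.13, -0.61 and -0.715. The smaller fall with the label siSMYD3#1 was thus seen in TRIzol alone. Neither siRNA group had a member called higher by edgeR. The members not called with siSMYD3#1 were Rfc3 (-0.29) and E2f2 (-0.40). Both differed in sign between the extraction methods. The differences in log2(CPM + 0.5) were -0.57 for Rfc3 and -0.95 for E2f2 within NucleoSpin, and 0.235 and 0.535 within TRIzol. The members not called with siSMYD3#2 were Rfc3, Rfc4, Rpa3, Pola1, Prim2, Pole2, Rrm1, E2f2 and Dnmt1, with log2 changes from -0.53 in Rrm1 to 0.45 in E2f2. The count with siSMYD3#2 was 23 without its 24 h TRIzol library and 26 without its 0 h NucleoSpin 2 library, and it was 19 when the extraction method was left out of the model. The share of all genes called in these fits is not given here, so these counts do not set the members against other genes.

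By role, the siSMYD3#2 time course had smaller medians than siCtrl in every group: licensing -0.95 against -1.50, helicase activation -0.67 against -1.28, clamp, loader and RPA -0.44 against -1.10, polymerases and primase -0.48 against -1.08, and nucleotide supply -0.72 against -1.23. Over both extraction methods, libraries labelled siSMYD3#1 also had smaller medians than siCtrl in every group. In the same order of roles they were -1.22, -1.04, -0.68, -0.81 and -1.11. The difference between the time effects was tested gene by gene. For siSMYD3#2 against siCtrl, 0 members were called by edgeR (background 0.019%) and DESeq2 called Pola1 and Pole2. At an unadjusted p under 0.05 there were 23 members, against 10% of all genes, and 48 of 49 estimates were above 0 (median 0.44). The largest was Pola1 (0.85, SE 0.16, adjusted p = 0.0428). For libraries labelled siSMYD3#1, 0 members were called by edgeR (background 0.215%) and 0 by DESeq2, with 4 at an unadjusted p under 0.05 against 8.77% of all genes. Of 49 estimates 46 were above 0, with a median of 0.19. E2f2 had the lowest value there (-1.15, SE 0.39, adjusted p = 0.323).

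At 0 h, before differentiation, few members were called between siRNAs, although most estimates against siCtrl lay below 0. With the label siSMYD3#1, 0 members were called against siCtrl by edgeR (background 1.43%), and 5 had an unadjusted p under 0.05 (background 13.9%). The estimates of 41 of 49 lay below 0 (median -0.075). The median difference was -0.046 within NucleoSpin and -0.167 within TRIzol. DESeq2 called Dnmt1 and Mcm3, both lower. Mcm3, a subunit of the MCM ring, stood at 218, 190 and 207 CPM in siCtrl and at 121, 106 and 105 CPM in libraries labelled siSMYD3#1, without overlap (edgeR log2 -0.89, SE 0.23, adjusted p = 0.0444). Dnmt1 stood at 265, 244 and 262 CPM against 173, 185 and 182 CPM, also without overlap (-0.52, SE 0.11, adjusted p = 0.0128). In siSMYD3#2 cells the Mcm3 values were 157, 166 and 191 CPM and reached the siCtrl range, and those of Dnmt1 were 220, 230 and 254 CPM. Mcm3, Dnmt1 and Gins1 are named here after their values were seen.

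With siSMYD3#2 at 0 h, 0 members were called against siCtrl by edgeR (background 0.531%), 3 had an unadjusted p under 0.05 (background 10.1%), and DESeq2 called Gins1 lower. Of 49 estimates 39 lay below 0 (median -0.083). The median difference was -0.039 within NucleoSpin and -0.22 within TRIzol, where each group has 1 library. A lower start of the members than in siCtrl was thus not shown. Gins1 stood at 26.3, 31.0 and 29.0 CPM in siCtrl and at 13.8, 18.9 and 20.6 CPM in siSMYD3#2 (edgeR log2 -0.70, SE 0.16, adjusted p = 0.0424). In libraries labelled siSMYD3#1 it was 22.1, 32.3 and 27.7 CPM, around the siCtrl values. Between the siRNAs at 0 h, 0 members were called by edgeR (background 1.17%) and 0 by DESeq2, with 3 at an unadjusted p under 0.05 (background 13.6%).

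At 24 h, 4 of 49 members (Pola1, Mcm10, Pole and Rfc1) were called higher in siSMYD3#2 than in siCtrl cells, against 1.66% of all genes, and 45 were not called. None was called lower by edgeR or DESeq2. The estimates of 48 members lay above 0, with a median log2 difference of 0.34, where that of all genes was 0.00. In 19 members all 3 siSMYD3#2 libraries lay above all siCtrl libraries, against 8.3% of all genes, and 32 had an unadjusted p under 0.05, against 22.3%. The summed level was 2909, 3415 and 3724 CPM in siSMYD3#2 against 2494, 2575 and 2766 CPM in siCtrl. DESeq2 called 12 members, for which the share of all genes called is not given here. The NucleoSpin libraries alone gave 18 higher and 1 lower (19 called, against 8.38% of all genes called in that fit), and the fit without the extraction method gave 0. Leaving out the siSMYD3#2 24 h NucleoSpin 2 library also gave 0, and 1 member, Pola1, remained without either siCtrl 24 h NucleoSpin library or without the siSMYD3#2 NucleoSpin 1 library.

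**Figure D3:**
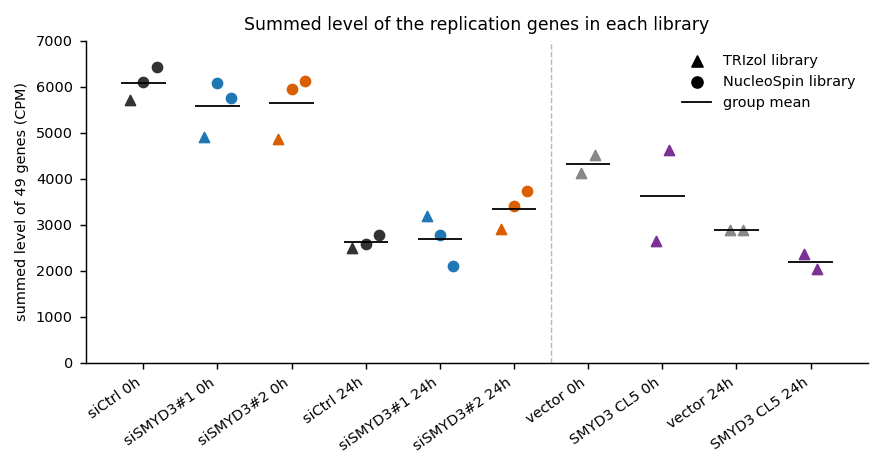
Summed CPM of the 49 members (y axis, from 0) in each of the 26 libraries by group (x axis), with the RNA extraction as marker. All 24 h siRNA libraries, between 2099 and 3724 CPM, lie below the lowest siRNA library at 0 h, 4856 CPM, and SMYD3 CL5 at 0 h splits into 2636 and 4613 CPM.

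Of the members called higher in siSMYD3#2 at 24 h, Pole and Rfc1 are named after their values were seen. Pola1 stood at 42.7, 77.1 and 77.2 CPM against 29.9, 45.1 and 45.6 CPM in siCtrl (edgeR log2 0.69, SE 0.12, adjusted p = 0.00108). The ranges overlapped through the TRIzol library, which was nevertheless above the siCtrl TRIzol library. Mcm10 stood at 19.6, 22.9 and 24.4 CPM against 15.7, 12.7 and 12.7 CPM, without overlap (0.71, SE 0.14, adjusted p = 0.0032). Pole, the catalytic subunit of the leading-strand polymerase, stood at 55.9, 50.5 and 52.7 CPM against 40.2, 32.8 and 32.2 CPM (0.60, SE 0.12, adjusted p = 0.00281). Rfc1, the large clamp loader subunit, stood at 80.9, 93.7 and 103 CPM against 66.1, 75.3 and 76.3 CPM (0.35, SE 0.08, adjusted p = 0.00932), and its adjusted p was 0.0141 in a fit with the replicate block.

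Orc1 and Chaf1b had differences of the same size and were not called. Orc1 was 7.96, 7.46 and 8.19 CPM against 5.52, 4.47 and 4.64 CPM, without overlap (0.69, SE 0.18, edgeR adjusted p = 0.0194). Chaf1b was 22.8, 27.5 and 28.0 CPM against 17.0, 14.5 and 15.4 CPM, also without overlap (0.73, SE 0.24, adjusted p = 0.0804). By role the median differences were 0.39 for licensing, 0.34 for helicase activation, 0.31 for clamp, loader and RPA, 0.44 for polymerases and primase, 0.30 for flap and nick joining, 0.29 for nucleotide supply, 0.16 for cyclin E and E2F, and 0.49 for chromatin copying. E2f2 alone lay below 0 (-0.67, adjusted p = 0.164). Of the 51 other replication genes, Dbf4, Recql4, Ticrr, Wdhd1, Atr and Nasp were called higher and Rnaseh2c lower. Cdkn1a, by contrast, was called lower, at 439, 331 and 330 CPM against 596, 622 and 669 CPM (log2 -0.81, adjusted p = 0.00156). The paper reports that the protein of this gene was not affected by silencing or overexpressing SMYD3. Its silencing blots for that protein used the other siRNA, and protein was not measured here. The early differentiation markers summed to 157 to 181 CPM in siSMYD3#2 against 373 to 878 CPM in siCtrl. In libraries labelled siSMYD3#1 they summed to 88.6 to 107 CPM, below siSMYD3#2, while the members' median difference from siCtrl there was 0.13. The part of these markers in the differences was not tested.

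In libraries labelled siSMYD3#1, by contrast, 1 member was called at 24 h against the same siCtrl libraries, E2f2, which was lower, against 2.94% of all genes called lower. E2f2 stood at 29.8, 36.4 and 23.4 CPM against 43.6, 93.6 and 100.4 CPM, without overlap (log2 -1.26, SE 0.28, edgeR adjusted p = 0.00974). The call was near the threshold: with the replicate block its adjusted p was 0.0152, and it was lost when any library other than the siSMYD3#1 TRIzol library was left out, with adjusted p from 0.0189 to 0.0572. Without that TRIzol library E2f2 (-1.65) and Mcm3 (-0.81) were called, and both were called with NucleoSpin libraries alone (-1.67 and -0.80). Smyd3 was not lowered by the test in these libraries, so this is a difference between labels and not a shown effect of less Smyd3 RNA. Among the other lists, Dbf4 was called higher (0.60) and Rb1 (-0.76) and E2f3 (-0.39) lower.

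The other members differed in sign between the extraction methods in this comparison. In the NucleoSpin libraries 36 of 49 differences between siSMYD3#1 and siCtrl at 24 h lay below 0 (median -0.09), and in the TRIzol libraries 47 lay above 0 (median 0.38). For Cdc6 the siSMYD3#1 values were 20.7, 12.0 and 5.38 CPM and for Pcna 153, 109 and 84.7 CPM, so that the 3 libraries of the group were spread more widely than in siCtrl. The median over both methods was 0.13. For siSMYD3#2 against siCtrl both methods gave positive medians, 0.44 with NucleoSpin (48 of 49 above 0) and 0.21 with TRIzol (40 of 49). TRIzol is represented by 1 library for each group, so its values carry no error.

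**Figure D4:**
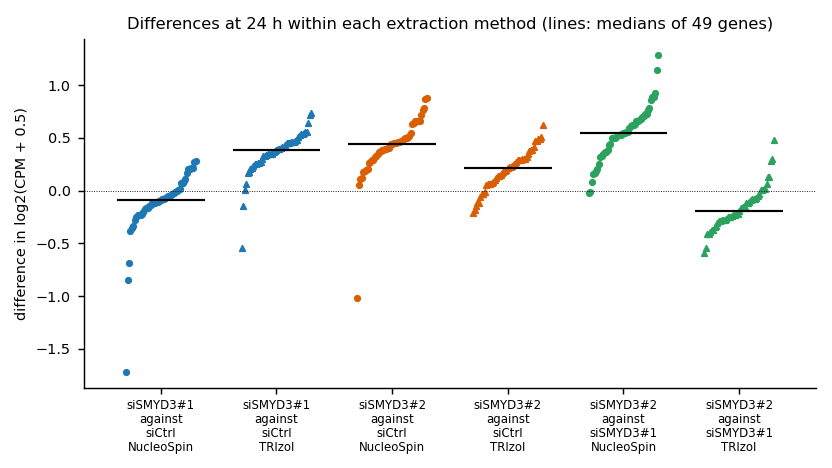
Difference in log2(CPM + 0.5) at 24 h for each of the 49 members, computed within the NucleoSpin libraries (mean of 2 for each group) and within the TRIzol library of each group. The siSMYD3#2 differences from siCtrl have medians of 0.44 and 0.21, and the siSMYD3#1 differences have medians of -0.09 and 0.38, on opposite sides of 0.

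Directly against libraries labelled siSMYD3#1 at 24 h, siSMYD3#2 had 2 members called higher, against 1.31% of all genes, and 0 called lower by edgeR, with a median of 0.26. They were Pola1 (0.68, SE 0.12, adjusted p = 0.00134), whose siSMYD3#1 values were 34.5, 46.0 and 38.8 CPM, and Dnmt1 (0.51, SE 0.11, adjusted p = 0.00822), at 144, 194 and 210 CPM against 131, 141 and 109 CPM. With the replicate number as a block Pola1 alone was called. The count rose to 20 without the siSMYD3#1 24 h TRIzol library (5.4% of all genes called in that fit) and to 28 with NucleoSpin libraries alone (9.76%). It fell to 0 without the siSMYD3#2 NucleoSpin 2 library, and to Pola1 alone without the siSMYD3#2 NucleoSpin 1 library or either NucleoSpin library of siSMYD3#1. Within TRIzol the median difference was -0.20, with 39 of 49 below 0, and within NucleoSpin it was 0.55, with 47 of 49 above 0.

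In the overexpression experiment the test called 0 of 17835 genes over time in either line. It had 2 libraries for each group and a common dispersion of 0.0903, against 0.0159 in the siRNA fit. In vector cells 0 members were called between 0 h and 24 h by edgeR (background 0%) and 0 by DESeq2, with 11 at an unadjusted p under 0.05 (background 7.04%). Nevertheless, in 48 of 49 members both 24 h libraries lay below both 0 h libraries, against 30.8% of all genes, with a median log2 change of -0.63. Rrm2 went from 296 and 309 CPM to 157 and 157 CPM, and Cdc6 from 35.7 and 38.4 CPM to 24.4 and 23.4 CPM. E2f2 again stood apart, at 17.4 and 24.3 CPM at 0 h and 33.0 and 38.1 CPM at 24 h (0.77, not called).

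In SMYD3 CL5 cells 0 members were called over time by edgeR (background 0%) and 0 by DESeq2, with 29 at an unadjusted p under 0.05 (background 6.38%) and a median of -0.85. In 39 members the libraries did not overlap and were lower at 24 h, against 11.3% of all genes. The 0 h libraries of the clone differed from each other: the summed level was 2636 CPM in replicate 1 and 4613 CPM in replicate 2, against 4127 and 4519 CPM in vector cells. Mcm6 was 104 CPM in replicate 1 and 202 CPM in replicate 2. Without replicate 1 at 0 h, 31 members were called lower over time, against 5.51% of all genes called either way in that fit, the lone remaining library being assumed to vary like the other groups. Set against the mean of the vector libraries at 0 h, the clone's members had a median difference of -0.71 in replicate 1 at 0 h and of 0.25 in replicate 2.

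Against vector cells at 0 h, SMYD3 CL5 had 0 members called by edgeR (background 1.07%), 8 at an unadjusted p under 0.05 (background 18.3%) and a median of -0.16. DESeq2 called Rrm2 lower. Rrm2 stood at 150 and 175 CPM against 296 and 309 CPM (edgeR log2 -0.90, SE 0.21, adjusted p = 0.0648). Pola1 stood at 47.8 and 40.8 CPM against 75.8 and 90.5 CPM (-0.91, SE 0.27, adjusted p = 0.131), and Ccne2 at 23.5 and 10.9 CPM against 36.2 and 43.6 CPM (-1.21, SE 0.38, adjusted p = 0.145). These 3 did not overlap between the lines. Without the clone's replicate 1 at 0 h, Ccne2 was called lower and Pold2, Rfc2 and Rpa2 higher (12.6% of all genes called), and without its replicate 2 Cdc6 and Dut were called lower (2.56%).

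At 24 h, 0 members were called between SMYD3 CL5 and vector cells by edgeR (background 0.964%) and 0 by DESeq2, with 6 at an unadjusted p under 0.05 (background 14%). The estimates of 44 of 49 lay below 0 (median -0.39), and in 36 both clone libraries lay below both vector libraries, against 26.8% of all genes. Mcm6 stood at 91.8 and 73.7 CPM against 169 and 156 CPM (-0.97, SE 0.33, adjusted p = 0.213). Cdc6 stood at 13.2 and 11.9 CPM against 24.4 and 23.4 CPM (-0.93, SE 0.32, adjusted p = 0.221), and Orc1 at 7.40 and 4.97 CPM against 11.8 and 10.1 CPM (-0.82, SE 0.27, adjusted p = 0.192). The 5 estimates above 0 were Rfc3, Rpa3, Prim1, Pold2 and E2f2.

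**Figure D5:**
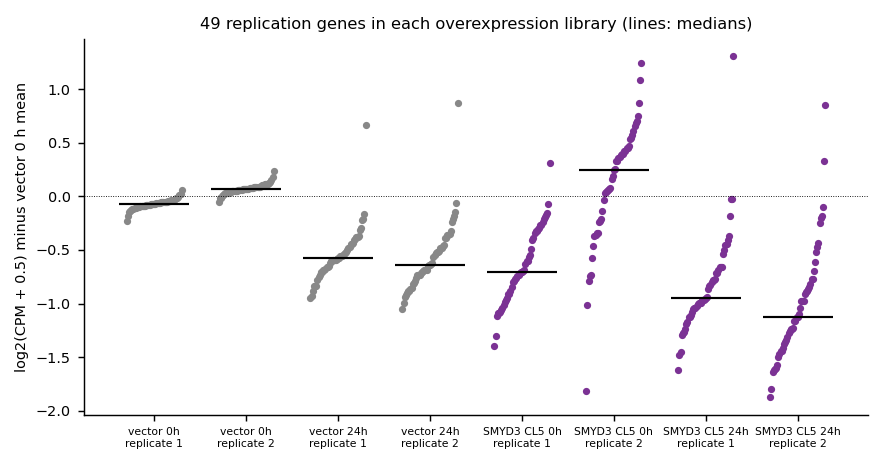
Difference in log2(CPM + 0.5) of each of the 49 members (points) from the mean of the vector libraries at 0 h (y axis) in each overexpression library (x axis), with black lines at the medians. The clone's 0 h libraries have medians of -0.71 and 0.25, and its 24 h libraries have medians of -0.95 and -1.12, below those of the vector libraries at 24 h (-0.57 and -0.64).

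The difference between the time effects of the lines gave 0 members by edgeR (background 0%) and 0 by DESeq2, with 0 at an unadjusted p under 0.05 (background 1.75%). The early differentiation markers summed to 81.6 to 276 CPM (lowest to highest library) in SMYD3 CL5 at 0 h, where vector cells had 8.88 to 10.6 CPM. At 24 h they summed to 433 to 497 CPM, where vector cells had 30.4 to 42.6 CPM. Myog alone was 15.9 and 81.9 CPM in the clone at 0 h against 0.28 and 0.54 CPM. The part of these markers in the differences between the lines was not tested, and with 1 clone the effect of SMYD3 and that of clone selection cannot be told apart.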

How the data were processed

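Polyadenylated RNA of 26 C2C12 cultures was sequenced with a stranded kit. Per the submitters' processing notes and methods, reads were checked with FastQC 0.11.5, aligned to GRCm38 with HISAT2 2.1.0 and assigned to genes with featureCounts (Subread 1.6.3), and the authors deposited raw counts per gene and library without normalization. Their own analysis was a DESeq2 model of condition plus RNA extraction.

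The deposited counts were tested here with edgeR 4.0.16 and limma 3.58.1 (R 4.3.3) through filterByExpr, TMM scaling and a robust quasi-likelihood test, with a threshold of 0.01 on the Benjamini-Hochberg adjusted p. For the siRNA cells, 1 model covered 6 groups and the RNA extraction (18 libraries, 15820 genes), and the overexpression fit held 8 libraries as 4 groups (17835 genes). DESeq2 1.42.0 was an alternative. Groups came from the sample labels and replicate numbers from the study's list. Same-numbered siRNA libraries deviated together (correlation of deviations from the group means 0.366 to 0.851, as TRIzol and NucleoSpin libraries carry fixed numbers), and so a replicate block was tried. Symbols, exons and coordinates came from GENCODE M21, promoters from RefSeq. The SE is the size of the log2 change divided by the square root of F. The fit was also run on simulated counts, for the time effect in siCtrl and in vector cells. Those counts held no extraction effect, so the run does not bear on calls that differ by extraction.

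The members and the lists set beside them were chosen with earlier results of these data known. Genes named with values were, by rule, the member with the largest siCtrl change in each role, those not called there, the 5 largest differences for siSMYD3#2 at 24 h, those called for siSMYD3#1 at 24 h and the 3 largest in each comparison of SMYD3 CL5 with vector.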

Additional observations from a re-analysis of the deposited data

How the results depend on the processing

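The fall of the members in siCtrl cells and in libraries labelled siSMYD3#1 kept its direction and its count within 1.5 times under every alternative run, and without 1 library at a time 46 to 48 and 41 to 47 members were called. For siSMYD3#2 over time the count was 23 to 40 with 1 library left out and 19 without the extraction covariate. Small counts moved more, and the cause was not tested. The counts in this section are given without the share of all genes called under the same setting, so they do not set the members against other genes. Without the low-count filter the edgeR adjusted p of E2f2 for siSMYD3#1 against siCtrl at 24 h was 1.89e-21, against 0.00974 in the main fit. For siSMYD3#1 against siCtrl at 0 h the count of 0 became 2 at an adjusted p under 0.05, with DESeq2 and without the low-count filter, and 1 with NucleoSpin libraries only. For siSMYD3#2 against siCtrl at 0 h it became 1 at 0.05, 1 with DESeq2 and 2 without the filter, and for siSMYD3#2 against siSMYD3#1 at 0 h it became 3 without the filter and 1 with NucleoSpin. At 24 h, siSMYD3#1 against siCtrl gave 0 with median-ratio size factors, the replicate block or no extraction covariate, 2 with NucleoSpin, and 0 to 2 with 1 library left out. At 24 h, siSMYD3#2 against siCtrl gave 13 at 0.05, 12 with DESeq2, 21 without the filter, 0 without the covariate, 19 with NucleoSpin, and 0 to 5 with 1 library left out. Against siSMYD3#1 at 24 h it gave 4 with DESeq2, 9 without the filter, 1 with the replicate block, 0 without the covariate, 28 with NucleoSpin, and 0 to 20 with 1 library left out. The difference of time effects gave 1 without the filter and 1 with NucleoSpin for siSMYD3#1. For siSMYD3#2 it gave 1 at 0.05, 2 with DESeq2, 10 without the filter, 3 with NucleoSpin, and 0 to 1 with 1 library left out. SMYD3 CL5 over time gave 1 without the filter, 1 with all 26 libraries in 1 fit, and 0 to 31 with 1 library left out. Against vector at 0 h it gave 1 with DESeq2, 1 without the filter, 2 in the fit of 26, and 0 to 4 with 1 library left out, and at 24 h 1 in the fit of 26. Each library was left out only in comparisons that hold its group, so the vector time course was not refitted without a clone library. With 1 library left out, every other siRNA comparison stayed at 0. With the replicate block the calls of E2f2 (siSMYD3#1 at 24 h), Rfc1 (siSMYD3#2 at 24 h), Dnmt1 (between the siRNAs at 24 h), E2f1 (siSMYD3#1 over time, adjusted p = 0.0104 by edgeR), and Pole and Gins4 (siSMYD3#2 over time, adjusted p = 0.0103 and 0.0107) were lost, and it changed no other call of a member. In the overexpression lines, with 2 pairs for each comparison and no label that ties the numbers to a shared culture, the replicate numbers were not taken to pair the samples (correlations of deviations from -0.097 to 0.483), and with the block no member was called in any of their comparisons. Of the alternatives for genes named by rule, 343 kept the call, 21 gained it, 21 lost it and 0 reversed. The overexpression fit had 2 replicates in each group and a common dispersion of 0.0903, against 3 replicates and 0.0159 in the siRNA fit.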
